A study of Mus musculus with 4 samples.

Results

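Lipid droplets are stores of neutral lipid wrapped in a single phospholipid layer, and proteins bound to that layer set how fast the stored triglyceride is made and broken down. The perilipins (Plin genes) coat the droplet, the CIDE proteins fuse droplets, the FIT proteins act at the endoplasmic reticulum where droplets bud, and the lipase ATGL, encoded by Pnpla2, starts lipolysis unless its inhibitor G0s2 binds it. In hepatocytes several of these genes are known targets of the PPAR nuclear receptors, and their proteins are abundant in fatty liver. The 10 genes Plin2, Plin4, Plin5, Cidea, Cidec, Fitm1, Fitm2, Hsd17b13, Pnpla2 and G0s2 were chosen by name from the 24324 gene symbols of the array. They had 13 probes, and 9 of the 10 genes had a probe bright enough to be tested.

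The RNA came from total liver of 4 mice that the labels call a conditional knockout of NIPP1 in that organ, and of 4 mice called controls. All 8 mice were untreated males of a mixed strain at 2 months of age. The product of Ppp1r8, NIPP1, binds protein phosphatase 1 in the nucleus and regulates it. The sources used here give neither the Cre line nor the deleted exons, nor the alleles that the controls carry. Each of the 4 arrays compared 1 knockout with 1 control mouse. Knockout RNA was labelled with Cy3 on replicates 1 and 2, and with Cy5 on the other arrays. No mouse was on more than 1 array. The main limma fit has a term for dye orientation, so its p-values measure the spread between arrays within an orientation. The difference between mice of opposite orientations is not part of that spread. Whole liver RNA holds many cell types, and in it fewer cells of a type cannot be told apart from less RNA per cell.

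All 4 arrays lay on 1 slide and were scanned at 1 time. In either dye, 52.7% to 56.3% of spots were marked as well above background, and none was saturated. The brighter of 2 probes for Ppp1r8 read log2 knockout over control of -0.61, -0.75, -0.76 and -0.64 on replicates 1 to 4. The limma fit gave -0.69 ± 0.05 (SE, adjusted p 0.0589). The other probe read -0.67, -0.60, -0.60 and -0.77, with a mean of -0.66. For both, the levels in knockout and control mice did not overlap, and they were low, at log2 6.70 to 7.60. The scanner's processed signals gave means of -1.33 and -1.22. Of 8 hepatocyte markers, all were tested and 4 had positive values, with array medians of -0.33, -0.24, 0.30 and 0.60. Of these, 1 was higher at an adjusted p of 0.1, beside 3.5% of all genes tested. It was albumin (Alb, 0.44, limma adjusted p 0.0657), whose ratios also differed by dye orientation (unadjusted p of the dye term 0.00011). All 8 stellate cell markers and 7 macrophage markers were tested. Of them 0 passed an adjusted p of 0.1, beside 3.5% of all genes higher and 2.05% lower. Pancreatic acinar markers had array medians of 4.22, -2.66, -0.18 and -1.10. Their summed intensity was 34341 in knockout replicate 1 and 7612 in control replicate 2, and 1138 to 2451 in the other mice. The part of that RNA in the results below was not tested.

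No gene of the 16322 tested passed an adjusted p of 0.05 in the limma fit (0%). The smallest adjusted p was 0.0539, and 3719 genes had an unadjusted p under 0.05. Results are therefore read at a second threshold, an adjusted p of 0.1, at which 572 genes were higher in knockout livers (3.5%) and 334 lower (2.05%). At that threshold 4 of the 9 tested lipid droplet genes were higher in knockout livers (Fitm1, G0s2, Hsd17b13 and Plin5) and 0 were lower, while 5 of 9 had an unadjusted p under 0.05. The median fitted log2 ratio of the 9 was 0.31, beside -0.0008 for all genes tested, and 8 of 9 were above 0, beside 49.7% of all genes. The ratio was above 0 on all 4 arrays for 6 of 9, beside 13.3% of all genes, and below 0 on all 4 for 0 of 9, beside 10.8%. With median centring in place of loess, 2 of 9 kept 1 sign on all arrays. The share of all genes that did so under median centring was not counted. These counts describe genes that were chosen with earlier results of the same arrays known.

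**Figure D1:**
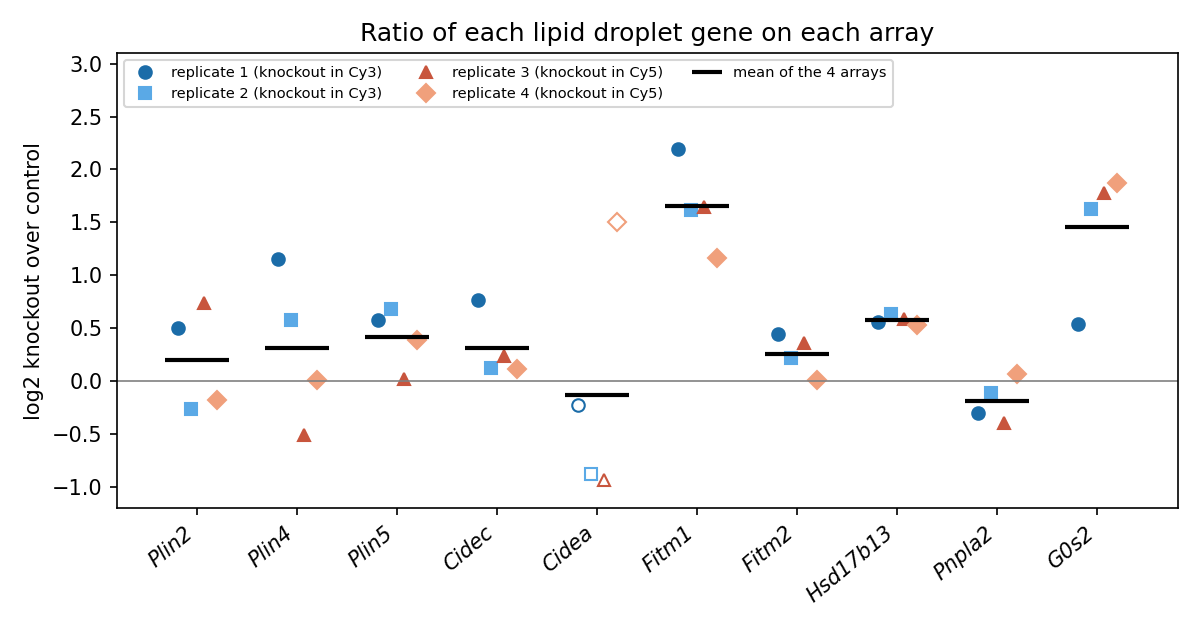
Log2 ratio of knockout over control on each array (vertical axis) for the 10 genes, 1 symbol per array and a bar at the mean of the 4. Fitm1 and G0s2 stand highest with means of 1.66 and 1.45, Hsd17b13 has its 4 arrays between 0.53 and 0.64, and open symbols mark Cidea, which was too dim to be tested.

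The probe sequences of the 3 genes whose knockout and control levels did not overlap show what was measured. Each of them has an open reading frame over at least part of its 60 bases. Positions are on mm9, as the array files give them, and sequences run 5′ to 3′ on the strand of the transcript. The capitals in G0s2 mark the first ATG with an open frame behind it, and those in Hsd17b13 the stop codon that ends its frame.
Fitm1, chr14:56194734-56195160, plus strand: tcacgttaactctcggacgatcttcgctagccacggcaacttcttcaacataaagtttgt
G0s2, chr1:195098925-195098984, minus strand: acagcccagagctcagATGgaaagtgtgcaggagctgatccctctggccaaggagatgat
Hsd17b13, chr5:104392792-104392851, minus strand: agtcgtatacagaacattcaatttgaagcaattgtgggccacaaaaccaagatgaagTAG
The Fitm1 probe spans 427 bases of the genome with its 60 bases, so it crosses a stretch absent from the transcript. The G0s2 probe has its ATG at base 17, counted from its 5′ end, and the stop codon of the Hsd17b13 probe begins at base 58.

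Of the genes for droplet formation, Fitm1 was higher in every knockout mouse than in any control mouse. Fitm1 encodes FIT1, a membrane protein of the endoplasmic reticulum that binds triglyceride and is best known from skeletal muscle. Its log2 level was 11.69, 11.13, 11.01 and 11.17 in the knockout mice, against 9.49, 9.51, 9.36 and 10.01 in the control mice of replicates 1 to 4. The groups stood well apart, with 11.01 as the lowest knockout and 10.01 as the highest control level. The array ratios were 2.20, 1.62, 1.65 and 1.16, and the fitted ratio was 1.66 ± 0.14 (SE; 95% interval 1.29 to 2.03), a 3.16-fold difference. It ranked 16 of 16322 genes from the highest ratio, with a limma adjusted p of 0.0589. Without any 1 of the 4 replicates the ratio was 1.51 to 1.80, and the adjusted p was 0.103 to 0.248, past neither threshold.

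Skeletal muscle markers were read beside Fitm1 because of its known site. Only 2 of 7 were bright enough to be tested, and neither passed the 0.1 threshold. Ckm, the muscle creatine kinase, was well above background in 1 knockout and 1 control mouse, and Mylpf, a fast myosin light chain, in 0 of 8 mice. Acta1, skeletal muscle actin, was well above background in 1 knockout and 2 control mice, with log2 levels of 6.18, 6.54, 6.14 and 7.51 in the knockout mice, against 6.02, 7.72, 6.22 and 8.76 in the control mice. The summed intensity of all 7 was 625 to 842 in knockout and 624 to 1190.0 in control mice, and both groups had their highest sum in replicate 4. The Fitm1 ratio was lowest on that array, and the part of muscle RNA in it was not tested.

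Fitm2, the family member that is expressed in most tissues, had smaller ratios and did not pass the threshold. Its brighter probe (chr2:163292132-163292191, minus strand) read 12.48, 12.38, 12.39 and 12.41 in the knockout mice, against 12.03, 12.16, 12.03 and 12.40 in the control mice. Replicate 4 held a control mouse at the knockout level, so the groups overlapped. The ratios were 0.45, 0.22, 0.36 and 0.01, and the fit gave 0.26 ± 0.08 (95% interval 0.03 to 0.49; limma adjusted p 0.187), with 0.17 without replicate 3. A dimmer probe 2252 bases away read 0.43, 0.19, 0.33 and -0.29, with a mean of 0.16 ± 0.32 (SD, 4 arrays). The Fitm1 ratio exceeded that of Fitm2 on each array, by 1.75, 1.40, 1.29 and 1.15.

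**Figure D2:**
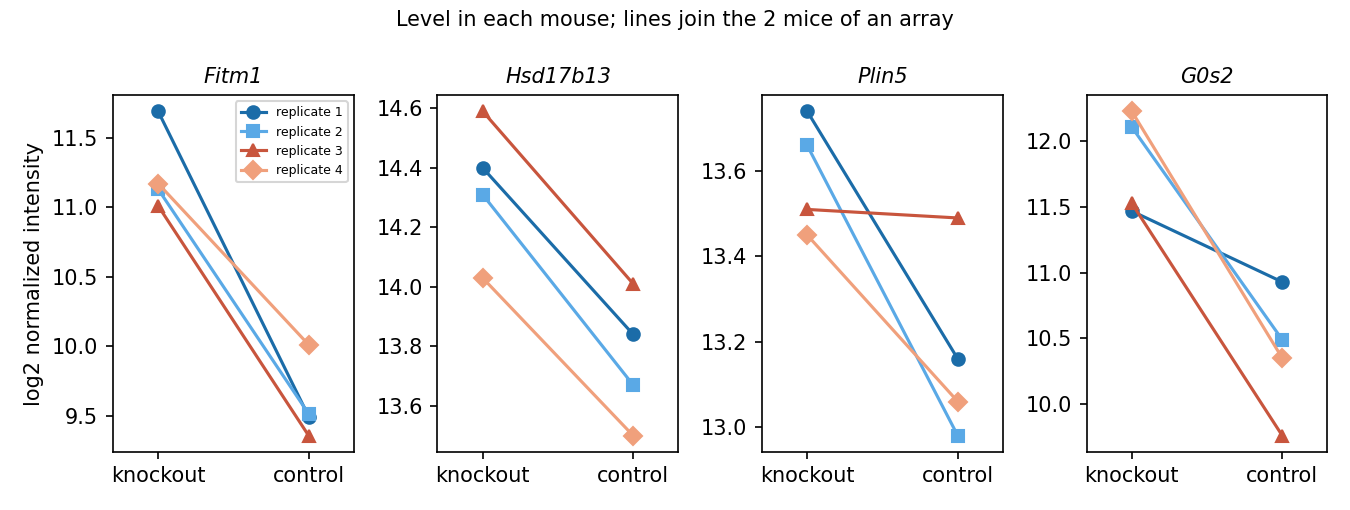
Log2 normalized intensity (vertical axis) in each knockout mouse (left) and control mouse (right) for the 4 genes past the 0.1 threshold, with lines joining the 2 mice of an array. The levels are separate for Fitm1, Hsd17b13 and G0s2, and those of Plin5 overlap through control replicate 3 at 13.49.

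Lipolysis control showed a large difference in the inhibitor and none past a threshold in the lipase. G0s2 encodes a small protein that binds ATGL and blocks it. Its log2 level was 11.47, 12.11, 11.53 and 12.23 in the knockout mice, against 10.93, 10.49, 9.76 and 10.35 in the control mice. All 4 knockout levels lay above all 4 control levels, and replicate 1, with the lowest knockout and the highest control mouse, had the smallest ratio. The ratios were 0.54, 1.63, 1.77 and 1.87, and the fit gave 1.45 ± 0.19 (95% interval 0.93 to 1.98), a 2.74-fold difference that ranked 25 of 16322. Its limma adjusted p was 0.0663. Without replicate 1 the ratio was 1.73 (adjusted p 0.0823). The call at 0.1 was lost without replicate 2, 3 or 4, where the adjusted p was 0.117 to 0.287.

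Pnpla2 encodes ATGL, which removes the first fatty acid from triglyceride. Its level (chr7:148645928-148645987, plus strand) was 11.29, 11.42, 11.64 and 11.34 in the knockout mice, against 11.59, 11.53, 12.04 and 11.27 in the control mice. The groups overlapped, and the knockout mouse was the lower one on 3 of 4 arrays. The fitted ratio was -0.19 ± 0.10 (95% interval -0.45 to 0.08; limma adjusted p 0.331), with -0.07 without replicate 3 and -0.30 without replicate 4. Pnpla2 was the only tested gene of the 9 below 0. On each array the G0s2 ratio exceeded that of Pnpla2, by 0.84, 1.74, 2.17 and 1.81.

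Abhd5, also called CGI-58, is the protein that activates ATGL. Its ratios were 0.66, 0.24, 0.36 and -0.25, and the fit gave 0.25 ± 0.14 (limma adjusted p 0.344). G0s2 exceeded Abhd5 on replicates 2, 3 and 4 and not on replicate 1, where the difference was -0.12. Lipe, the hormone-sensitive lipase that takes the second fatty acid, had 0.04 ± 0.09 (adjusted p 0.815). Mgll, the lipase of the last step, was positive on all 4 arrays at 0.34 ± 0.10, short of the threshold at an adjusted p of 0.167.

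Hsd17b13 encodes a droplet-bound enzyme of the hydroxysteroid dehydrogenase family that is made mainly by hepatocytes. Its brighter probe, shown above, read 14.40, 14.31, 14.59 and 14.03 in the knockout mice, against 13.84, 13.67, 14.01 and 13.50 in the control mice. The groups were separate by a narrow margin, 14.03 in knockout replicate 4 against 14.01 in control replicate 3. The array ratios of 0.56, 0.64, 0.59 and 0.53 were the tightest of the 9 genes (SD 0.04). The fit gave 0.58 ± 0.05 (95% interval 0.45 to 0.71), a 1.49-fold difference with a limma adjusted p of 0.0589.

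A second Hsd17b13 probe lies 8031 bases away on the same chromosome (chr5:104384701-104384760, minus strand), and the array files assign it to another transcript. It read -0.06, -0.09, 0.41 and -0.08 on replicates 1 to 4, with a mean of 0.04 ± 0.24 (SD). The 2 probes therefore disagreed on replicates 1, 2 and 4 in sign. The second probe was much the dimmer, at log2 levels of 6.67 to 7.15 in the 8 mice, and a mean of both gives it equal weight. With the mean of both probes in place of the brighter one, the Hsd17b13 ratio was 0.31 and its limma adjusted p 0.11. Without any 1 replicate the brighter probe gave an adjusted p of 0.119 to 0.255. Hsd17b11, a droplet-bound relative and the neighbouring gene, was named after its values were seen. It had ratios of 0.20, 0.28, 0.17 and 0.57 and a fit of 0.30 ± 0.08 (limma adjusted p 0.15).

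**Figure D3:**
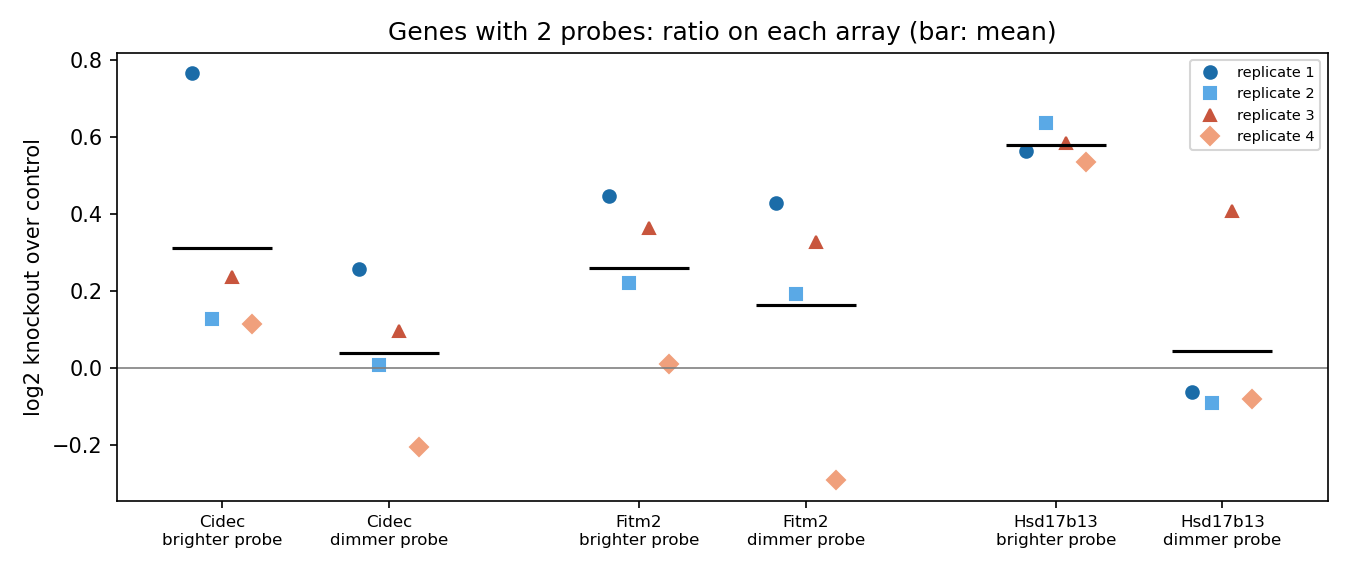
Log2 ratio of knockout over control on each array (vertical axis) for both probes of the 3 genes that had a pair, with a bar at the mean. The brighter Hsd17b13 probe has a mean of 0.58 and the dimmer one 0.04, and the dimmer Cidec and Fitm2 probes have means of 0.04 and 0.16.

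Of the 3 perilipins, Plin5 passed the 0.1 threshold, and the 95% intervals of all 3 overlapped. Plin5 encodes the perilipin of oxidative tissues, which ties droplets to mitochondria and binds ATGL and its activator. Its level (chr17:56251025-56251084, minus strand) was 13.74, 13.66, 13.51 and 13.45 in the knockout mice, against 13.16, 12.98, 13.49 and 13.06 in the control mice. The knockout mouse was higher on each array, but by 0.02 on replicate 3, where the control mouse matched the knockout range. The ratios were 0.58, 0.68, 0.02 and 0.39, and the fit gave 0.42 ± 0.08 (95% interval 0.20 to 0.64; limma adjusted p 0.0999). It passed the 0.1 threshold by the narrowest of margins and failed it in 9 of 15 alternative settings, with an adjusted p between 0.0117 and 0.272 over all 15.

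Plin2 encodes adipophilin, the chief droplet coat protein of hepatocytes. Its level (chr4:86302847-86302906, minus strand) was 14.83, 14.13, 14.67 and 14.26 in the knockout mice, against 14.33, 14.40, 13.93 and 14.44 in the control mice. Knockout mice were higher on replicates 1 and 3 and lower on replicates 2 and 4. The ratios of 0.50, -0.27, 0.74 and -0.17 gave a fit of 0.20 ± 0.21 (95% interval -0.37 to 0.77; limma adjusted p 0.616). Without replicate 3 the value was -0.03, without replicate 1 it was 0.0078, and without replicate 2 or 4 it was 0.39 or 0.43.

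Plin4, a perilipin best known from fat cells and muscle, is the neighbour of Plin5, and their probes lie 10910 bases apart. Its level (chr17:56240055-56240114, minus strand) was 8.78, 8.52, 8.40 and 8.28 in the knockout mice, against 7.62, 7.94, 8.91 and 8.27 in the control mice. The control mouse of replicate 3 was the highest of all 8. The ratios of 1.16, 0.58, -0.51 and 0.01 gave a fit of 0.31 ± 0.14 (95% interval -0.07 to 0.69; limma adjusted p 0.285). Without replicate 1 or 4 it was 0.17 or 0.18. The 2 dye orientations differed, with means of 0.87 on replicates 1 and 2 and -0.25 on replicates 3 and 4 (unadjusted p of the dye term in limma 0.015). The orientations hold different mice, so dye and mouse cannot be told apart. The Plin5 ratio minus that of Plin4 was -0.58, 0.11, 0.52 and 0.38, so the neighbours kept no fixed order across arrays.

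Of the CIDE genes, Cidec encodes the protein that lets one droplet take up the lipid of another. Its brighter probe (chr6:113374630-113374689, minus strand) read 7.93, 7.30, 7.96 and 7.66 in the knockout mice, against 7.17, 7.18, 7.72 and 7.55 in the control mice. The knockout mouse was higher on each array, by 0.77, 0.13, 0.24 and 0.11, while the levels of the groups overlapped. The fit gave 0.31 ± 0.12 (95% interval -0.02 to 0.64; limma adjusted p 0.237). With the scanner's processed signals the mean ratio was 0.47, and with a replicate left out the fit gave 0.15 to 0.47. A dimmer probe 3426 bases away was well above background in 2 knockout mice and 1 control mouse and had a mean of 0.04 ± 0.19 (SD).

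Cidea, a CIDE protein of brown fat that also appears in fatty liver, lies on chromosome 18 and was well above background in 2 knockout and 2 control mice. It was not tested. Its log2 level was 6.04, 6.25, 6.94 and 8.20 in the knockout mice, against 6.27, 7.13, 7.87 and 6.70 in the control mice. One knockout mouse, that of replicate 4, was the highest, and the control mouse of replicate 3 came next. The ratios were -0.23, -0.88, -0.93 and 1.51, with a mean of -0.13 ± 1.14 (SD).

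Fat cell markers were read beside Cidea, and they varied unequally between mice. Ucp1, the uncoupling protein of brown fat, was 5.98, 6.25, 6.85 and 7.47 in the knockout mice, against 6.10, 6.79, 7.31 and 6.40 in the control mice. Its highest levels were in the same knockout and control mice as those of Cidea. Adipoq, the fat cell hormone adiponectin, was well above background in 2 knockout and 2 control mice, and Lep and Plin1 in 1 of each. Adipoq, Retn, Cfd, Plin1 and Fabp4 were each highest in control replicate 3, at 7.03, 7.17, 9.70, 6.62 and 10.79. Knockout replicate 4 came next for all of these but Retn, and was highest for Slc2a4 at 7.04. Lep lay between 5.96 and 6.04 in all 8 mice. Lipe lay between 6.83 and 7.11 and was lowest in knockout replicate 4, the mouse with the highest Cidea level. The summed intensity of the 9 fat cell markers was 1662, 1631, 1882 and 2907 in the knockout mice, against 1334, 2063, 3421 and 2396 in the control mice. Of these 9, 5 were tested and 0 passed the 0.1 threshold. The part of fat cell RNA in the Cidea and Plin4 values was not tested.

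**Figure D4:**
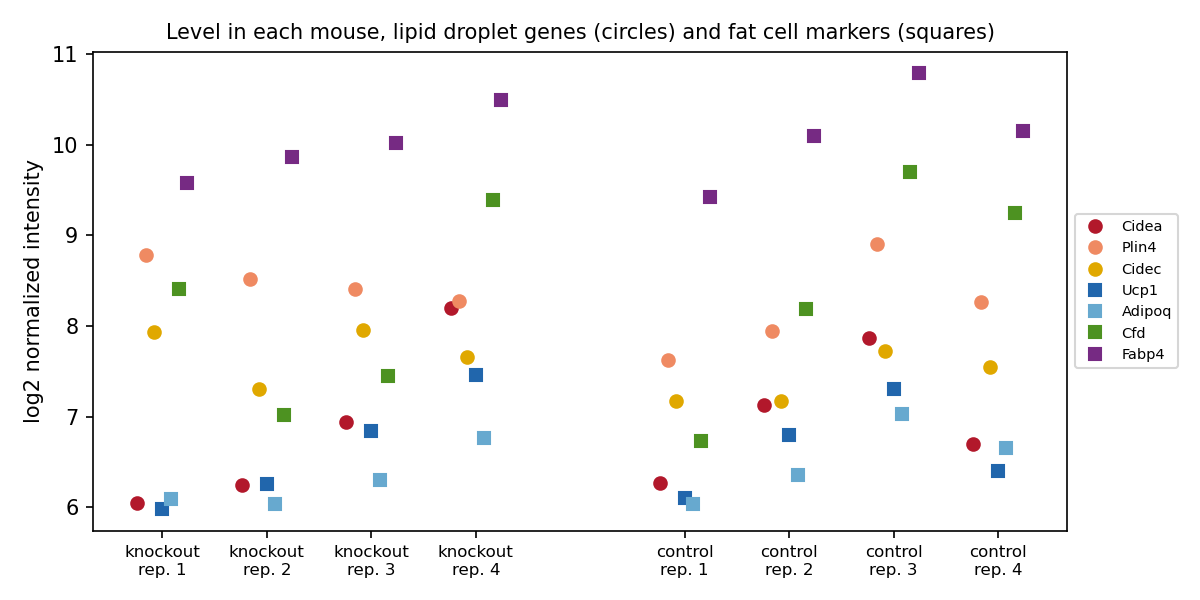
Log2 normalized intensity (vertical axis) in each knockout and control mouse for Cidea, Plin4 and Cidec (circles) and 4 fat cell markers (squares), to be read within a gene. Cidea and Ucp1 are both highest in knockout replicate 4 and next in control replicate 3. Adipoq, Cfd and Fabp4 are highest in control replicate 3 and next in knockout replicate 4.

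The 37 other lipid droplet and lipolysis genes give the setting. Of these, 33 were tested, 24 had positive and 9 negative values, and the median log2 ratio was 0.09. At an adjusted p of 0.1, 2 were higher, beside 3.5% of all genes, and 0 lower, beside 2.05%. On all 4 arrays 7 were above 0, beside 13.3% of all genes, and 2 below, beside 10.8%. Tm6sf2, a membrane protein that helps to load lipid onto secreted lipoproteins, had 0.37 ± 0.06 (limma adjusted p 0.0764). Lss, lanosterol synthase of the cholesterol pathway, had 0.61 ± 0.08 (limma adjusted p 0.0672). Both were high on replicates 3 and 4 alone, and the unadjusted p of the dye term in limma was 0.0016 for Tm6sf2 and 0.000634 for Lss. Tm6sf2 read -0.14, 0.06, 0.77 and 0.78, and Lss read -0.01 and -0.26 on replicates 1 and 2 and at least 1.19 on the other arrays.

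The other coat and lipase relatives did not pass the threshold. Plin3, the perilipin found in most tissues, had 0.18 ± 0.09 (limma adjusted p 0.343). Cideb, the CIDE protein of hepatocytes that works in lipoprotein loading, had 0.10 ± 0.05 (limma adjusted p 0.285). Pnpla3, a lipase relative of ATGL, varied widely between arrays, with 0.36, -0.91, 1.26 and 0.87, and a fit of 0.39 ± 0.23 (limma adjusted p 0.383). Hilpda, a second inhibitor of ATGL, had 0.10 ± 0.05 (limma adjusted p 0.333). Bscl2, or seipin, which shapes the site where droplets form, had 0.14 ± 0.05 and was positive on all 4 arrays (limma adjusted p 0.201).

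Transcription factors known to act on these genes, the coactivator Ppargc1a and Lpin1 (described below) were read as a list of 7, all tested. At an adjusted p of 0.1, 2 were higher, beside 3.5% of all genes, and 0 lower, beside 2.05%. Nr1h3, the oxysterol receptor LXR alpha, had 0.26, 0.33, 0.26 and 0.19 (fit 0.26 ± 0.05; limma adjusted p 0.0956). Mlxipl, the carbohydrate-responsive factor ChREBP, had 0.004, 0.02, 0.51 and 0.73 (fit 0.32 ± 0.06; limma adjusted p 0.0955; unadjusted p of the dye term 0.00579). Pparg, the PPAR of fat cells and fatty liver, was 10.25, 10.13, 10.29 and 10.39 in the knockout mice, against 9.82, 9.95, 8.93 and 9.70 in the control mice. Its levels did not overlap between the groups, and its fit of 0.67 ± 0.13 missed the threshold (limma adjusted p 0.101). The Pparg ratios were 0.43, 0.18, 1.37 and 0.69 (unadjusted p of the dye term in limma 0.0467). Ppara, the main PPAR of hepatocytes, had -0.11 ± 0.12 (limma adjusted p 0.644), Srebf1, of lipid synthesis, -0.05 ± 0.14 (adjusted p 0.863), and the coactivator Ppargc1a -0.04 ± 0.16. These means hide spread between arrays. Ppara read -0.70, -0.32, 0.03 and 0.56, Srebf1 -0.23, -0.94, 0.62 and 0.36, and Ppargc1a -0.55, -0.25, -0.09 and 0.73. The unadjusted p of the dye term in limma was 0.0262, 0.0151 and 0.0777, in that order.

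Promoter windows of RefSeq on GRCm38.p6, from 250 bases before to 50 after each gene start, were searched on both strands for the nuclear receptor half-site AGGTCA and the E-box CACGTG. The table held 11 windows for 9 of the 10 genes. The half-site was in 4 of the 11, beside 16.3% of all 32851 windows, and the E-box in 1 of 11, beside 7.15%. A direct repeat of AGGTCA with 1 base of any kind between the copies, the form that PPAR and its partner bind, was in 0 of 11, beside 0.0396% of all windows. The same repeat of AGGNCA was in 0 of 11, beside 0.381%. Plin2 and Hsd17b13 each held the half-site in 1 window and Plin5 in both of its windows, which belong to different starts, and the windows of Fitm1 and G0s2 held neither the half-site nor the E-box. The stretches around the half-site are shown for Hsd17b13 and Plin5, which passed the 0.1 threshold, with the site in capitals, each 100 bases on the strand of the gene.
Hsd17b13, chr5:103977432-103977531, minus strand: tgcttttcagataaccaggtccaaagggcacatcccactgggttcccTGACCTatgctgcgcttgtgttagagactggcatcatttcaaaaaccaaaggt
Plin5, chr17:56117666-56117765, minus strand: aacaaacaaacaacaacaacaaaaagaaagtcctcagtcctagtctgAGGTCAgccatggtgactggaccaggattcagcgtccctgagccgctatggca
In Hsd17b13 the site begins at -96 from the gene start and reads on the opposite strand, and in Plin5 it begins at -170. The other Plin5 window has a separate match, at base 14 counted from its own start. A match is a run of letters and says nothing of binding in these livers.

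**Figure D5:**
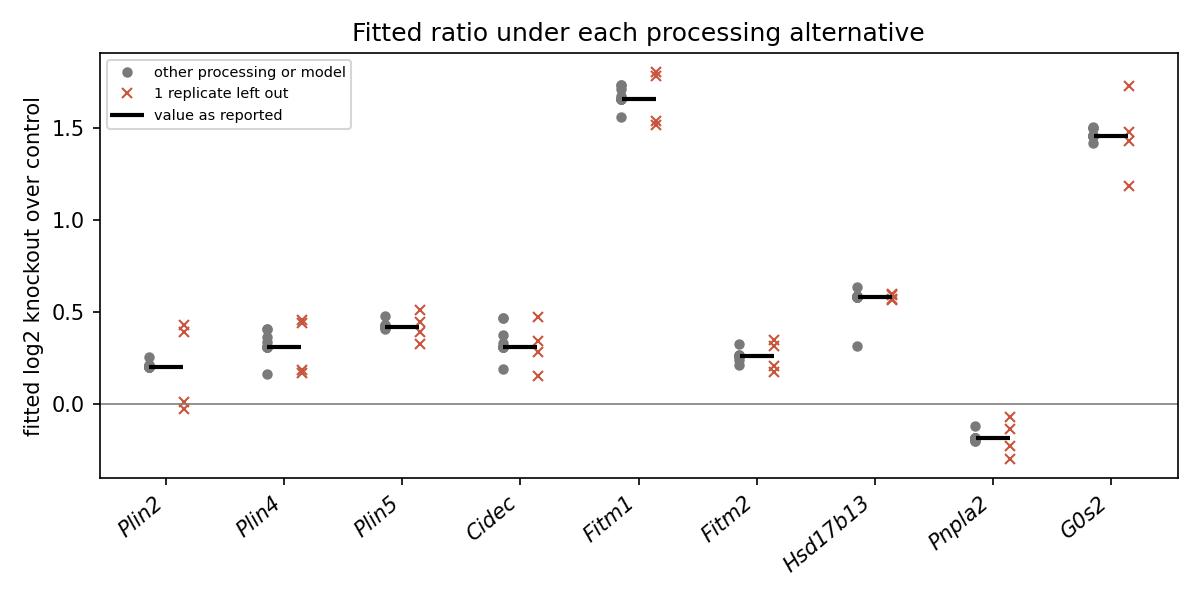
Fitted log2 ratio of knockout over control (vertical axis) of the 9 tested genes as reported (bar), under 11 other processing or model settings (grey) and with 1 replicate left out (crosses). Fitm1 stays between 1.51 and 1.80 and G0s2 between 1.18 and 1.73, Pnpla2 is below 0 in each, and Plin2 reaches -0.03 without replicate 3. Several grey settings return the reported ratio by design: no filter, no dye term, the separate-channel fits, and trend and robust variance. Averaging probes cannot move a gene with 1 tested probe, and the deposited table repeats the processed signals.

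A model that reads each dye channel on its own, with the array as a block, gave more calls over the whole table. At an adjusted p of 0.05 it placed 9.61% of all genes higher in knockout livers, and 5 of the 9 lipid droplet genes passed, all higher. Its limma adjusted p was 0.00135 for Fitm1, 0.00443 for G0s2, 0.00873 for Hsd17b13, 0.0117 for Plin5 and 0.044 for Fitm2. Without the block, the limma adjusted p was 0.00763, 0.0249, 0.0742, 0.0568 and 0.134 in the same order. Only Fitm1 and G0s2 then passed 0.05, 2 of the 9, beside 714 of all 16322 genes in either direction. The groups' levels were fully separate, with knockout above control, for 3 of the 9, beside 7.08% of all genes.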

How the data were processed

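Per the labels' protocols, liver RNA was amplified as labelled cRNA. Spots were quantified with Agilent Feature Extraction 10.7.3.1, per the file headers. For each spot and dye the deposited files hold mean and local background intensity, processed intensities that the software had background-subtracted and dye-normalized, and a log10 ratio of Cy5 over Cy3, which was not tested. The authors' deposited value table holds log2 ratios. All 43020 lay within 0.0001 of log2 knockout over control of the processed signals, which fixed its scale and direction and showed no added centring. The medians of its columns were -0.051, 0.14, -0.18 and -0.18.

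From the mean signals, background was corrected with normexp (offset 50). Its parameters were fitted without spots marked for non-uniform background and those outside the 0.1 to 99.9 percentiles, because a fit on every spot was known to fail on replicate 1. Loess followed within arrays. Control spots and feature outliers (194 to 230 spots per array) were left out, and repeat spots averaged. Tested probes had the scanner's well-above-background mark in 3 or more mice of a genotype, and the brightest tested probe stood for a gene. Log2 ratios were fitted with limma 3.58.1 (R 4.3.3) with a dye intercept, and p-values were two-sided and adjusted by Benjamini-Hochberg over 16322 genes. Levels are log2 intensities after loess and Aquantile between arrays, and they and their sums still carry the offset of 50 for each gene. Of these steps, only the limma fit was run on simulated data, which were log2 ratios. Background correction, normalization, filters and levels were not. Other backgrounds, normalizations, filters, models and left-out replicates were tried.

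The 10 genes and the lists were chosen with earlier results of these data known. Named were all 10, set members of the other lists, and others of the droplet list under an adjusted p of 0.1. The number of arrays limits the precision.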

Additional observations from a re-analysis of the deposited data

Results flagged for a closer look

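The dimmer Hsd17b13 probe read 0.41 on replicate 3, far from the other 3 arrays, which lay between -0.09 and -0.06. The gap to the nearest array was 0.94 of the whole range. It was 1 of 39 sets of 4 values examined, and chance flags about 1 in 20 groups.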

How the results depend on the processing

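The number of lipid droplet genes higher at an adjusted p of 0.1 was 4, against 2 with the mean of a gene's probes and 0 to 1 with a replicate left out. The number past 0.05 was 0, against 2 with median centring, 2 with no filter, 5 with the separate-channel fit (array as replicate block), 2 with that fit and no replicate block, 3 with trend and robust variance, and 0 with a replicate left out. The mice paired on an array share only that array as far as the labels say. Lipid droplet genes with 1 sign on all arrays numbered 6, against 2 with median centring and 6 to 7 with a replicate left out. The share of all genes with 1 sign was not counted under these alternatives. The median ratio stayed between 0.20 and 0.46 over 15 alternatives, and none of them placed a gene lower at 0.1. Dropping the dye term, the separate-channel fits, and trend and robust variance cannot move that median. The deposited table repeats the processed signals. With a replicate left out Plin2 ranged over -0.027 (without replicate 3; limma adjusted p 0.967) to 0.43. Adjusted p over the 15 ranged over 0.00135 to 0.248 for Fitm1, 0.00443 to 0.287 for G0s2, 0.00873 to 0.255 for Hsd17b13 and 0.0117 to 0.272 for Plin5. Over all genes, those higher at 0.1 were 572, against 243 with normexp fitted on every spot, 1125 with median centring, 148 with no dye term, 2297 and 984 with the separate-channel fits with and without the block, 996 with trend and robust variance, and 0 to 47 with a replicate left out. Those lower were 334, against 198, 73, 1944, 601, 638 and 0 to 26 for the every-spot normexp, no dye term, separate-channel with and without block, trend and robust, and left-out replicates. Genes past 0.05 were 0, against 8 with the processed signals, 8 with the deposited table, 29 with no background correction, 212 with median centring, 235 with no filter, 10 with no dye term, 2748 and 714 with the separate-channel fits, and 378 with trend and robust variance. The cause of these shifts was not tested, beyond fewer arrays where a replicate was left out.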

Other observations

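Lpin1, a phosphatidate phosphatase of triglyceride synthesis that also acts in the nucleus, had ratios of opposite sign in the 2 dye orientations. Its log2 level was 10.93, 12.17, 11.22 and 11.39 in the knockout mice, against 10.11, 10.39, 13.88 and 12.42 in the control mice of replicates 1 to 4. Its array ratios were 0.82, 1.78, -2.66 and -1.04, and the limma fit gave -0.27 ± 0.33 (adjusted p 0.66). The unadjusted p of the dye term was 0.00733, and since the orientations hold different mice, dye and mouse cannot be told apart.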
